A study of Homo sapiens with 8 samples.

Results

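The genes described here are 10 components and regulators of caveolae and of vesicular transport across the endothelium: CAV1, CAV2, PTRF, SDPR, PRKCDBP, EHD2, PACSIN2, DNM2, PLVAP and MFSD2A. They were taken by symbol from a table of 23346 genes, with none left out for its values. Their mRNA levels were read by polyA RNA-seq in hCMEC/D3, a human line of brain microvascular endothelium that was immortalised and is widely used to model the blood-brain barrier in vitro. There was 1 group of 8 replicate libraries, with no treatment named in the labels, so no condition could be compared with another. Whether the replicates were separate cultures or repeat preparations was not given in the sources used here, so each p-value below measures only the spread between these 8 libraries, which may be technical. The labels name no flow and no co-cultured pericytes or astrocytes.

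Caveolae are flask-shaped pits of the plasma membrane. Caveolins form the membrane-embedded scaffold, cavins form the coat that is laid over it, and proteins such as EHD2, PACSIN2 and dynamin act at the neck, where a pit is held at the surface or released as a vesicle. Endothelium of most organs is rich in caveolae, whereas endothelium of the brain is known for few of them and for low vesicular transport, which MFSD2A, a lipid transporter of the blood-brain barrier, helps to keep low. PLVAP forms the diaphragms of caveolae and fenestrae and is known as a marker of leaky rather than barrier endothelium. PTRF, SDPR and PRKCDBP are older symbols of CAVIN1, CAVIN2 and CAVIN3, and the older symbols are kept as in the table.

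Each of these genes has close relatives, and reads from a stretch that relatives share can be assigned to either. The longest identical stretches of coding sequence between a member and a relative, taken from the canonical GENCODE transcripts and read 5′ to 3′ along the transcript, are shown because they bear on how well the relatives can be told apart. All are in lower case, and every base shown is common to both genes.
PTRF and SDPR: acggtgagcaagctgctggagaag
CAV1 and CAV3: ccatgcattaagagct
EHD2 and EHD4: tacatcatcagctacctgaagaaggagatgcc
PACSIN2 and PACSIN1: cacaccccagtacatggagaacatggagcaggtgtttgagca
DNM2 and DNM1, and also DNM2 and DNM3: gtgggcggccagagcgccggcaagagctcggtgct
On GRCh37 the stretch of PTRF lies at chr17:40574777-40574800 on the minus strand, in exon 1. The stretch of CAV1 lies at chr7:116199198-116199213 on the plus strand, in exon 3. That of EHD2 lies at chr19:48239635-48239666 on the plus strand, in exon 5. That of PACSIN2 lies at chr22:43280482-43280523 on the minus strand, in exon 6, and that of DNM2 at chr19:10829027-10829061 on the plus strand, in exon 1. These runs were 24, 16, 32, 42 and 35 bases long. CAV1 and CAV2 shared no run above 16 bases. The read length was not given in the sources used here, so how many reads fell wholly within such a run was not tested.

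Depth was high and similar between libraries, at 34694272 to 45102622 read pairs each. Genes called detected, with a CPM (counts per 1e6 counts, after TMM scaling of library sizes) of 1 or more in every library, numbered 11980, or 51.3% of the table. Replicates 2, 7 and 8 stood apart from the other 5 when each gene's deviation from its mean over the 8 libraries was set against transcript length. Their slopes were -0.24, -0.11 and -0.36 log2 units per doubling of length, and those of the others were between 0.09 and 0.16. Slopes on GC content, fitted jointly with length, were 0.023, 0.0065 and 0.028 log2 units per percent in replicates 2, 7 and 8. In the others they were between -0.015 and -0.0074. All these slopes are relative to the average of the 8 libraries, so they do not say how levels change with length or GC within a library. Values are therefore given on 3 scales. CPM carries no adjustment for length or GC content. RPKM is CPM divided by the length of the canonical transcript in kilobases, and it is the main scale for setting genes against each other; differences of 2 genes on CPM or CQN are given beside it where named, and on CPM they carry the transcript length. The CQN value is the authors' conditional quantile normalised value on the log2 scale, in which the effects of gene length and GC content on each library are corrected. Of the endothelial markers 9 of 9 were detected (summed 1893 to 3534 CPM per library). Of the mural markers 5 of 8 were detected (27.9 to 42.3 CPM), and of the fibroblast markers 2 of 6, COL1A1 and COL1A2 (142 to 211 CPM). The fibroblast marker DCN was at 0 in 7 libraries and LUM in 5. None of the 4 adipocyte, 4 skeletal muscle and 4 epithelial markers was detected, with summed levels of 0.681 to 1.03, 0.176 to 0.639 and 0.828 to 2.04 CPM. In such RNA from many cells, fewer cells that express a gene and less RNA per cell cannot be told apart.

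All 10 genes were detected in every library, against 51.3% of all listed genes. On the RPKM scale the median of their mean log2 levels was 5.81, against 3.48 over all detected genes with a known length, and 8 of the 10 lay above that value. The structural genes of the caveola were high and the pair that marks leaky or barrier endothelium was low. CAV1 and PTRF, the main scaffold and the main coat gene, were above 98.6% and 98.4% of detected genes. EHD2 was above 92.9%, SDPR above 91.6%, DNM2 above 89.1%, CAV2 above 87.6%, PACSIN2 above 85.5% and PRKCDBP above 82.8%. MFSD2A was above only 12.4% and PLVAP above only 4.60%.

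**Figure D1:**
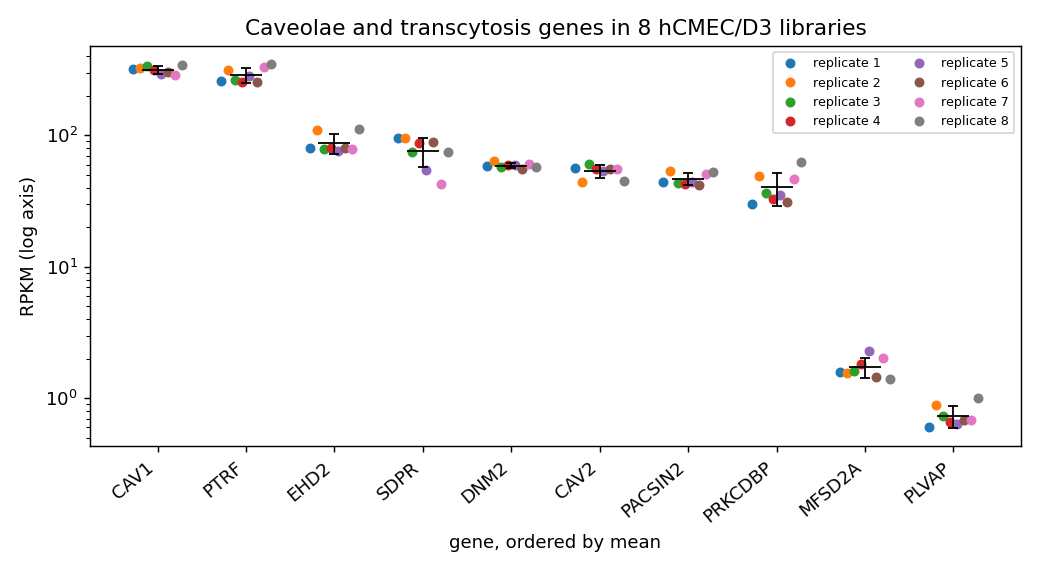
Level of each gene in each of the 8 libraries, in RPKM on a log axis, with genes in order of their mean. Coloured points are libraries, horizontal bars are means and error bars are the SD (n = 8). CAV1 and PTRF lie near 300 RPKM and overlap, 6 genes lie together between about 30 and 112 RPKM, and MFSD2A and PLVAP lie apart at 2.28 RPKM or less.

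The caveolins were led by CAV1, which encodes the scaffold protein without which caveolae do not form in endothelium. CAV1 (chr7:116164839-116201239, plus strand, 3 exons) had a lowest value of 286 RPKM in replicate 7, a median of 317 and a highest value of 343 in replicate 8. Its mean was 315 ± 19.8 RPKM (SD, n = 8), and the highest library was 1.20 times the lowest. CAV2 (chr7:116139655-116148595, plus strand, 3 exons), which assembles with CAV1 and depends on it to reach the surface, lies just upstream of CAV1 on the same strand. It had a lowest value of 43.9 RPKM in replicate 2, a median of 55.6 and a highest value of 60.4 in replicate 3, with a mean of 53.5 ± 5.76 (SD, n = 8). No library of CAV2 came near any library of CAV1. Within a library CAV1 was 5.98 ± 0.960 times CAV2 per length (SD, n = 8; range 5.11 to 7.56), and CAV1 was higher in 8 of 8, with a log2 difference of 2.56 ± 0.22 (two-sided exact sign-flip permutation p = 0.00781, the smallest that 8 libraries can give; adjusted p = 0.0103 over the 45 pairs of the 10 genes). CAV2 was highest in replicate 3 on the CPM and RPKM scales and in replicate 7 on the CQN scale, so its small differences between libraries had no order common to the scales.

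The muscle caveolin CAV3 was at 0 or 1 read pair in each library, with 0 in 5 of them and 3 read pairs in all. Per length, CAV1 was 46577 times CAV3 over the pooled libraries, with a 95% exact Poisson interval of 15938 to 225855 from the 3 read pairs of CAV3. CAV1 therefore made up 85.5 ± 1.77% and CAV2 14.5 ± 1.77% of the summed caveolin RPKM (SD, n = 8).

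The cavins held one of the highest genes and, by the SD of log2 values, the most variable of the 10. PTRF (chr17:40554467-40575338, minus strand, 2 exons), the coat subunit that all caveolae need, had a lowest value of 255 RPKM in replicate 6, a median of 273 and a highest value of 349 in replicate 8. Its mean was 289 ± 38.2 (SD, n = 8), and its transcript has 3570 nucleotides and 59.2% GC. Replicates 2, 7 and 8, the libraries with negative length slopes and positive GC slopes, were the 3 highest. On the CQN scale, which adjusts for length and GC content, PTRF ran from 10.33 in replicate 2 to 10.61 in replicate 3, and replicates 2 and 8 became the 2 lowest. The order of CAV1 and PTRF depended on the scale: the difference of CAV1 minus PTRF was 0.13 ± 0.20 log2 RPKM and positive in 6 of 8 libraries (exact sign-flip permutation p = 0.0781, adjusted p = 0.0818), and on the CQN scale PTRF was the higher in 8 of 8 libraries, with a difference of -0.35 ± 0.16 log2 units (exact permutation adjusted p = 0.00879).

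SDPR (chr2:192699032-192712006, minus strand, 2 exons), a cavin that shapes the membrane and is prominent in endothelium, was at 96.4, 94.9, 75.0, 87.3, 54.6, 89.2, 42.5 and 74.3 RPKM in replicates 1 to 8. Replicates 7 and 5 were lowest by a clear margin, and the other 6 lay between 74.3 and 96.4. The mean was 76.8 ± 19.5 RPKM (SD, n = 8), and the highest library was 2.27 times the lowest. The CQN values were 8.67, 9.05, 8.32, 8.60, 7.92, 8.66, 7.64 and 8.68, so the same 2 libraries were lowest after length and GC were adjusted for. Replicates 2 and 7 then differed by 2.65-fold. The SD of SDPR was 0.42 on log2(CPM + 0.1) and 0.46 on the CQN scale. The latter exceeded that of 94.7% of detected genes. SDPR was 0.273 ± 0.0867 times PTRF per length (SD, n = 8), from 0.127 to 0.372.

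PRKCDBP (chr11:6340176-6341740, minus strand, 2 exons), a cavin that binds protein kinase C delta, was the lowest of the detected cavins. It had a lowest value of 29.98 RPKM in replicate 1, a median of 36.0 and a highest value of 62.5 in replicate 8, with a mean of 40.5 ± 11.3 (SD, n = 8). Its transcript is the shortest of the 10, at 1028 nucleotides, and the richest in GC, at 66.7%. Replicates 8, 2 and 7 were the 3 highest on CPM, at 64.3, 50.1 and 48.0, and the 3 lowest on the CQN scale, at 6.52, 6.50 and 6.83. In 0 of 8 libraries did PRKCDBP fall on the same side of its mean on both scales. With a linear trend on length and GC removed from each library, 8 of 8 libraries fell on the side that the CQN values gave. No order of the replicates for this gene can thus be given without naming the scale.

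The muscle cavin MURC, also called CAVIN4, did not reach 1 CPM in all libraries (0.898 ± 0.269 CPM, SD, n = 8, 17 to 43 read pairs). The log2 difference of PTRF minus MURC per length was 9.56 ± 0.50 and positive in 8 of 8 libraries (exact sign-flip permutation p = 0.00781, adjusted p = 0.00781 over 9 pairs of a member and a relative). PTRF made up 71.0 ± 4.24%, SDPR 19.1 ± 5.25% and PRKCDBP 9.82 ± 1.65% of the summed cavin RPKM (SD, n = 8). The share of SDPR ran from 10.04% in replicate 7 to 25.0% in replicate 1.

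**Figure D2:**
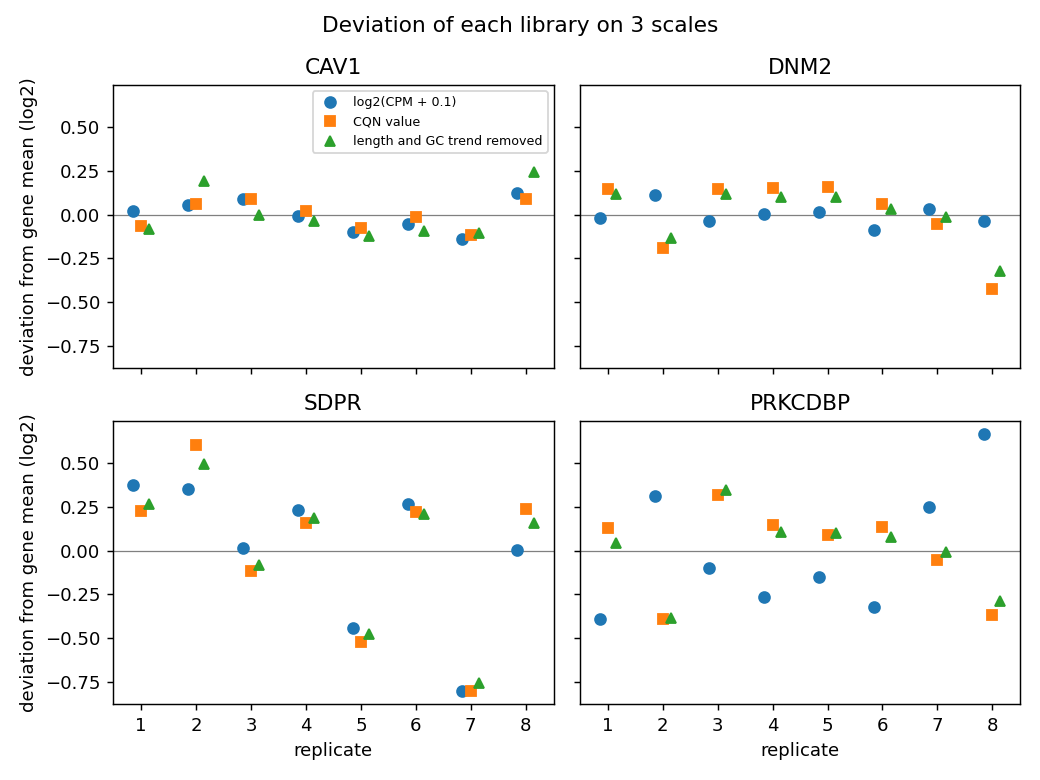
Deviation of each library from the gene's own mean, in log2 units, for CAV1, DNM2, SDPR and PRKCDBP on 3 scales: log2(CPM + 0.1), the CQN value, and log2(CPM + 0.1) with a linear trend on length and GC content removed. Each marker is 1 library. SDPR is lowest in replicates 7 and 5 on all 3 scales, whereas PRKCDBP is high in replicates 2, 7 and 8 on CPM and low in them on the CQN scale.

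Of the genes that act at the neck, EHD2 was the highest. EHD2 (chr19:48216601-48246391, plus strand, 6 exons), an ATPase that rings the neck and holds caveolae at the surface, had a lowest value of 76.4 RPKM in replicate 5, a median of 80.1 and a highest value of 112 in replicate 8. Its mean was 87.2 ± 14.7 (SD, n = 8). Replicates 2 and 8 stood above the other 6, which lay between 76.4 and 80.6 RPKM. On the CQN scale the separation was gone: 7 libraries lay between 8.90 and 9.02 and replicate 7 was below them at 8.71. EHD2 exceeded its relatives EHD1, EHD3 and EHD4, which act mainly in endosomal recycling, in 8 of 8 libraries. The log2 differences per length were 1.496 ± 0.264, 7.36 ± 0.43 and 1.42 ± 0.22 (SD, n = 8; exact permutation adjusted p = 0.00781 each). The difference from EHD4 was 0.45 ± 0.14 on the CQN scale, again positive in 8 of 8 libraries (exact permutation adjusted p = 0.00781). EHD2 made up 57.6 ± 3.38%, EHD4 21.6 ± 2.29% and EHD1 20.5 ± 2.93% of the summed EHD RPKM, with EHD3 at 0.294%.

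PACSIN2 (chr22:43265772-43411184, minus strand, 11 exons), an F-BAR protein that bends the membrane at the neck, had a lowest value of 42.1 RPKM in replicate 6, a median of 44.1 and a highest value of 54.1 in replicate 2. Its mean was 46.7 ± 4.93 (SD, n = 8). On CPM and CQN 8 of 8 libraries fell on the same side of its mean, with replicates 2, 7 and 8 on the high side. PACSIN3, the relative of muscle and other tissues, was 1.80 ± 0.24 log2 units lower (SD, n = 8; PACSIN2 higher in 8 of 8 libraries, exact permutation adjusted p = 0.00781). The neuronal relative PACSIN1 had 3 to 7 read pairs per library. PACSIN2 was 1531 times higher per length over the pooled libraries (95% exact Poisson interval 1128 to 2133, for the counting error of PACSIN1 only). PACSIN2 made up 77.7 ± 2.89% of the summed PACSIN RPKM and PACSIN3 22.3 ± 2.91%.

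DNM2 (chr19:10828729-10942586, plus strand, 21 exons), the ubiquitous dynamin GTPase that cuts vesicles free of the membrane, had a lowest value of 55.6 RPKM in replicate 6, a median of 58.7 and a highest value of 63.8 in replicate 2. Its mean was 59.0 ± 2.46 (SD, n = 8). On CPM it was the steadiest of the 10 genes, with an SD of 0.06 log2 units that was lower than that of all but 1.04% of detected genes. On the CQN scale its SD was 0.21, above that of 66.5% of detected genes, with replicates 8 and 2 lowest at 7.90 and 8.13 and the other 6 between 8.27 and 8.48. The brain-enriched DNM1 was 4.83 ± 0.21 log2 units lower per length (SD, n = 8; DNM2 higher in 8 of 8 libraries, exact permutation adjusted p = 0.00781). DNM3 had 7 to 21 read pairs per library, and DNM2 was 1448 times higher per length over the pooled libraries (95% exact Poisson interval 1187 to 1785). That interval covers the counting error of DNM3 only, and the ratio depends on the lengths chosen. The mean difference on log2(RPKM + 0.1) was 8.71 with the canonical length. It was 8.08 with the longest transcript and 6.60 with the union of exons. DNM2 made up 96.7 ± 0.474% of the summed dynamin RPKM. In the GENCODE 44 annotation, exons of DNM2 overlap those of TMED1 on the opposite strand, and exons of PACSIN2 overlap ARFGAP3 on the same strand. Exons of SDPR and PRKCDBP overlap an opposite-strand noncoding RNA each. By the gene bounds deposited with the counts, SDPR, PRKCDBP and PACSIN2 overlap no listed gene. DNM2 overlaps only the microRNA genes MIR199A1, MIR4748 and MIR638 there. Whether the counting used strand was not given in the sources used here, so whether reads of the GENCODE overlaps entered the members' counts cannot be told.

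In all 9 comparisons of a member with a relative, the member was higher in 8 of 8 libraries (exact permutation adjusted p = 0.00781 for each). The CQN scale gave the same direction for the 6 pairs in which both genes had values, all past the threshold. CAV3, PACSIN1 and DNM3 had none.

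**Figure D3:**
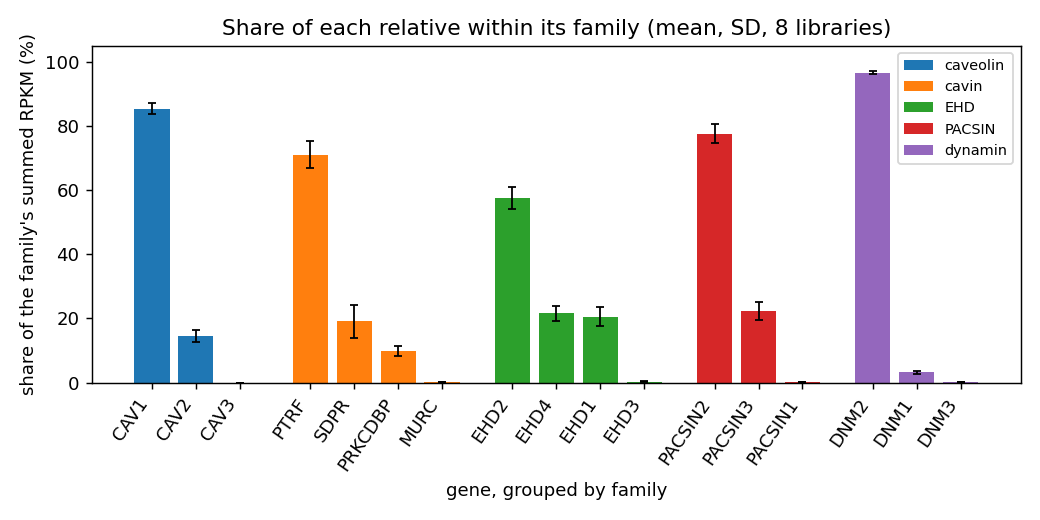
Share of each gene in the summed RPKM of its family, in percent. Bars are means and error bars the SD over the 8 libraries. DNM2 at 96.7%, CAV1 at 85.5%, PACSIN2 at 77.7%, PTRF at 71.0% and EHD2 at 57.6% lead their families.

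PLVAP and MFSD2A, the pair tied to leaky and to barrier endothelium, were both near the lower end of detected genes. PLVAP (chr19:17462264-17488137, minus strand, 6 exons) had a lowest value of 0.602 RPKM in replicate 1, a median of 0.683 and a highest value of 1.01 in replicate 8. Its mean was 0.737 ± 0.141 (SD, n = 8), or 1.69 ± 0.324 CPM. These values rest on 47 to 98 read pairs per library, and the 95% exact Poisson intervals, which cover counting error only, were 1.01 to 1.83 CPM in replicate 1 and 1.88 to 2.83 CPM in replicate 8. On the CQN scale PLVAP had an SD of 0.10 log2 units, less than the 0.18 that counting error alone gives at this depth, so no difference between libraries was detectable there. CAV1 was 437 ± 60.9 times PLVAP per length (SD, n = 8).

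MFSD2A (chr1:40420784-40435628, plus strand, 14 exons) had a lowest value of 1.41 RPKM in replicate 8, a median of 1.60 and a highest value of 2.28 in replicate 5. Its mean was 1.71 ± 0.300 (SD, n = 8), or 3.65 ± 0.639 CPM, from 110 to 187 read pairs per library. The 95% exact Poisson interval was 2.50 to 3.57 CPM in replicate 8 and 4.18 to 5.59 CPM in replicate 5. The intervals of these 2 libraries, picked as the extremes of the 8, did not overlap. Its SD rose from 0.23 on log2(CPM + 0.1) to 0.33 on the CQN scale, where counting error alone would give 0.12 and where 87.2% of detected genes had a lower SD. Most detected genes have higher levels. In the test of variation given below, MFSD2A was not above the trend for genes of like abundance, with or without the CQN offsets. Replicate 5 was highest and replicate 8 lowest on both scales. CAV1 was 190 ± 38.3 times MFSD2A per length (SD, n = 8). MFSD2A in turn was 2.42 ± 0.700 times PLVAP, from 1.39 to 3.59, and the log2 difference of 1.12 ± 0.40 was positive in 8 of 8 libraries (exact permutation adjusted p = 0.0103). With the union of a gene's exons as its length this difference was 0.28 and no longer passed the threshold (exact permutation adjusted p = 0.0899).

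The order of mean RPKM was CAV1, PTRF, EHD2, SDPR, DNM2, CAV2, PACSIN2, PRKCDBP, MFSD2A and PLVAP. Of the 45 pairs, 39 differed beyond the spread between libraries on RPKM, and these 39 had the same direction and passed on CPM and CQN too. Differences on CPM carry the transcript length, and whether those on CQN do was not tested. Neither scale is thus a separate check of levels per length. The 39 pairs did not all keep their direction with another transcript length. DNM2 minus PACSIN2, 0.34 log2 units with the canonical length, became -0.29 with the longest transcript and -1.43 with the union of exons. Both were past the threshold (exact permutation adjusted p = 0.00977 and 0.00857). DNM2 minus PRKCDBP, 0.58 with the canonical length, became -0.052 and -1.08 (exact permutation adjusted p = 0.759 and 0.00857). The place of DNM2 in the order is thus set by the length chosen, and with the union of exons it falls below PRKCDBP. All 17 pairs with PLVAP or MFSD2A were among the 39. Of the 9 neighbours in the order, 5 did not pass. Besides CAV1 and PTRF these were EHD2 and SDPR (difference 0.22 ± 0.41 log2 RPKM, exact permutation adjusted p = 0.188), SDPR and DNM2 (0.33 ± 0.43, exact permutation adjusted p = 0.0818), DNM2 and CAV2 (0.15 ± 0.20, exact permutation adjusted p = 0.0527), and CAV2 and PACSIN2 (0.19 ± 0.30, exact permutation adjusted p = 0.120). CAV2 and PRKCDBP, which are not neighbours, did not pass either (0.43 ± 0.50, exact permutation adjusted p = 0.0600). The order thus has CAV1 and PTRF at the top and, below them, EHD2, SDPR, DNM2, CAV2, PACSIN2 and PRKCDBP, in which several neighbours did not pass on RPKM. On CPM and CQN 43 of the 45 pairs passed each. There EHD2 was above SDPR by 0.41 and 0.50 log2 units (exact permutation adjusted p = 0.0245 and 0.0171), and DNM2 above CAV2 by 0.45 and 0.54. CAV2 was above PRKCDBP by 1.96 and 0.89, with an exact permutation adjusted p of 0.00879 for all 4 of these last differences. SDPR against DNM2 and CAV2 against PACSIN2 did not pass on any of the 3 scales. Without replicate 7, CAV1 against PTRF and SDPR against DNM2 passed on RPKM (0.18 and 0.45 log2 units, exact permutation adjusted p = 0.0352 for each), and without replicate 3 DNM2 against CAV2 did (0.18, exact permutation adjusted p = 0.0370). The step from PTRF to EHD2 was 1.74 ± 0.17 log2 units and that from PRKCDBP to MFSD2A was 4.46 ± 0.47 (n = 8, exact permutation adjusted p = 0.0103 for each). The step from PACSIN2 to PRKCDBP, 0.24 ± 0.25, passed narrowly (exact permutation adjusted p = 0.0451) and did not pass without any one of replicates 1 to 7.

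Variation between replicates was tested for each gene against the trend for genes of like abundance, with edgeR's goodness-of-fit test over all 11980 detected genes. Of these genes 558, or 4.66%, varied more than the trend at a Benjamini-Hochberg adjusted p under 0.05, and none of the 10 members did. At an unadjusted p under 0.05 there were 1572 genes and 0 of the 10. With the dispersion trend of DESeq2 the test called 2811 genes (23.5%) and 1 member, SDPR (adjusted p = 0.0346). With offsets from the CQN values in edgeR it called 744 genes (6.21%) and again SDPR alone of the 10 (adjusted p = 2.03e-04). That call ended without replicate 7 (edgeR adjusted p = 0.0753) and held without each of the other libraries (1.26e-06 to 0.00428). In the analysis of counts with no adjustment for length and GC, SDPR had an edgeR adjusted p of 0.824.

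The median SD of the 10 genes was below the median over detected genes on each scale. It was 0.21 against 0.28 log2 units on CPM, 0.11 against 0.16 on CQN, and 0.13 against 0.17 with the length and GC trend removed. These are descriptions, since the trend between a gene's level and its spread was not taken out. Of the 10, 8 lay below the median SD of detected genes on CPM and 6 on CQN. The 6 on CQN are near the share that a median gives by definition. DNM2 moved from below the median SD to above it, MFSD2A did the same, and SDPR and PRKCDBP were above it on both. CAV1, CAV2, PTRF, EHD2, PACSIN2 and PLVAP were below it on both scales, with CQN SDs of 0.08, 0.07, 0.10, 0.11, 0.06 and 0.10.

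**Figure D4:**
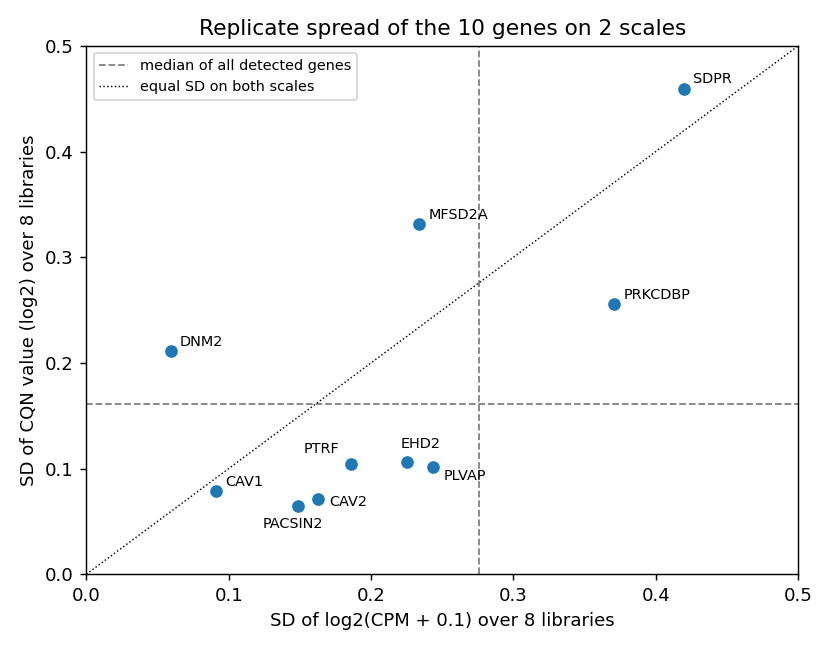
SD over the 8 libraries of log2(CPM + 0.1) on the x axis and of the CQN value on the y axis, both in log2 units, 1 point per gene. Dashed lines are the medians over all detected genes, 0.28 and 0.16, and the dotted line marks equal SDs. SDPR has the largest SD of the 10 on both scales, and DNM2 lies farthest above the dotted line.

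The secretory-granule gene VWF, an endothelial marker, was set beside SDPR because both were low in the same libraries. This was noticed after the values were seen. VWF had its lowest CPM in replicates 5 and 7, at 290 and 363, and 496 to 888 CPM in the other 6. Its CQN value was lowest in replicate 5 at 8.00 and highest in replicate 2 at 9.70. VWF did not vary more than the trend in the counts (edgeR adjusted p = 0.152) but did under the CQN offsets (6.33e-08). Of the other endothelial markers, PECAM1 passed only under the offsets (edgeR adjusted p = 0.906 and 6.30e-04) and CLDN5 passed in both (7.36e-04 and 9.51e-04). Of the 9 endothelial markers, 7 had their lowest CPM and 9 their lowest CQN value in replicate 5 or 7. The share of all detected genes with their lowest value in those libraries was not counted. These counts are thus not read as a trait of endothelial genes. EHD2 and PLVAP also had their lowest CQN value in replicate 7. CAV1 too was lowest in replicates 7 and 5 on both scales, at 703 and 723 CPM against 744 to 842 in the others, a smaller difference than that of SDPR. What these genes share in replicates 5 and 7 was not tested.

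**Figure D5:**
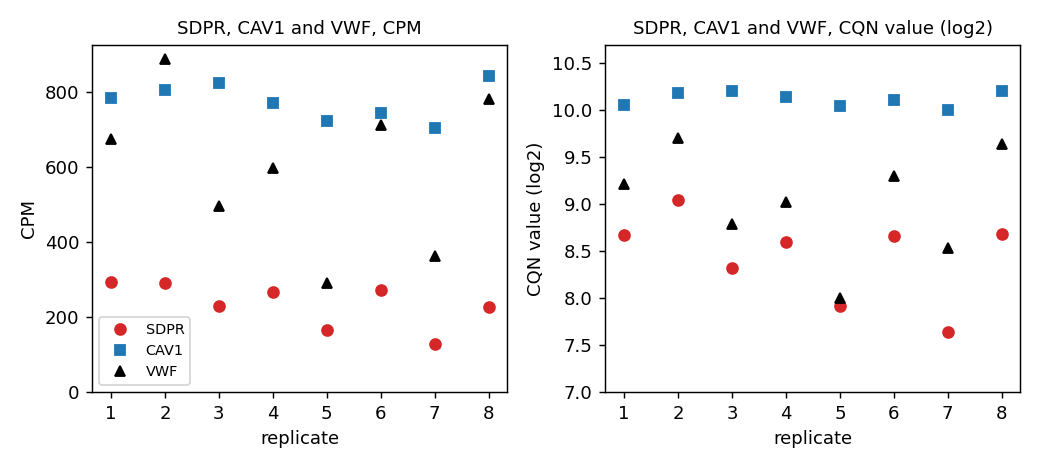
CPM (left) and CQN value (right, log2) of SDPR, CAV1 and VWF in each of the 8 libraries. Each marker is 1 library. SDPR and VWF are low in replicates 5 and 7 on both scales, and CAV1 is lowest in the same libraries within a narrower range of 703 to 842 CPM.

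Other genes of vesicular transport were counted from lists of known components. Of 9 relatives of the members 5 were detected, of 5 raft scaffolds 5, of 22 genes of the clathrin route 21, of 14 receptors of transcytosis 12, of 8 caveolar kinases and actin links 7, and of 7 vesicle fusion genes 7, against 51.3% of all listed genes. The medians of mean log2 RPKM over the detected genes of these lists were 3.74, 6.19, 4.58, 3.89, 4.60 and 4.84, against 3.48 over all detected genes. Among raft scaffolds the highest were STOM at 133 ± 14.6 RPKM, FLOT1 at 95.4 ± 27.8 and FLOT2 at 74.5 ± 18.6 (SD, n = 8), stomatin and flotillins that line other membrane microdomains. In the clathrin route, the alternative path of uptake, HSPA8, which uncoats vesicles, was at 917 ± 159 RPKM, the light chain CLTA at 275 ± 75.1 and the adaptor subunit AP2M1 at 250 ± 38.9 (SD, n = 8). AMPH, an amphiphysin known from synapses, was not detected (0.0402 CPM).

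Among the receptors, BSG, a glycoprotein used as a brain delivery target, was at 349 ± 101 RPKM, the transferrin receptor TFRC at 76.4 ± 30.4 and ACVRL1, an endothelial receptor of the BMP family, at 55.6 ± 10.3 (SD, n = 8). LRP2 and CD36 were not detected, at 0.143 and 0.669 CPM. TFRC and the neonatal Fc receptor FCGRT were the genes of these 6 lists with variation above the trend (edgeR adjusted p = 0.00305 and 0.0149, against 4.66% of all genes called). TFRC was lowest in replicates 8 and 2, at 127 and 167 CPM, and 408 to 544 in the others. FCGRT was highest in the same 2, at 161 and 133 CPM, and 49.3 to 68.4 in the others. Under the CQN offsets TFRC passed again (edgeR adjusted p = 1.38e-06) and FCGRT did not (0.111).

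The caveolar kinases and actin links were led by FLNA, a filamin that ties caveolae to actin, at 278 ± 30.3 RPKM, followed by DIAPH1 at 59.6 ± 5.47 and the Src-family kinase YES1 at 29.3 ± 8.19 (SD, n = 8). NOS3, the endothelial nitric oxide synthase that CAV1 holds inactive in caveolae, was just short of detection, at 0.920 ± 0.237 CPM (SD, n = 8; lowest 0.536 in replicate 7, highest 1.27 in replicate 4). The vesicle fusion genes were led by NAPA at 77.0 ± 26.7 RPKM, VAMP3 at 73.2 ± 2.09 and SNAP23 at 51.9 ± 7.67 (SD, n = 8), parts of the SNARE machinery. No gene of these lists other than the receptors varied more than the trend in either edgeR fit.

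The genes with the most similar pattern over the 8 libraries were named for 3 members by the Pearson r of CQN values across all detected genes, as a description that the shared libraries and their length and GC adjustment can shape. They are the top of a search over all detected genes with only 8 libraries, and the r that unrelated genes would reach was not tested. For CAV1 they were TMCO6 (r = 0.971), CCDC66 (0.948) and ARRDC3 (0.943). For PLVAP they were TRIM27 (0.982), TAF5 (0.936) and RUNDC1 (0.934), although the spread of PLVAP was below counting error. For MFSD2A they were EPHB2 (0.984), PIGW (0.984) and KIF3A (0.981).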

How the data were processed

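The authors deposited 1 table of gene counts and CQN values for 8 libraries of hCMEC/D3, from TruSeq v2 polyA RNA libraries, per the labels' protocols. The submitters' processing notes name CASAVA 1.9, TopHat2 2.0.6, HTSeq and hg19, without their roles. The deposited counts are whole and not normalised, per the file headers. All 186768 were even, so counting error used halved counts, called read pairs. The authors' CQN values are taken as log2, judged from the deposited values, and exist for 13962 genes.

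CPM used TMM library sizes (edgeR 4.0.16, R 4.3.3) over all 23346 genes. RPKM used canonical GENCODE 44 transcript lengths lifted to GRCh37, matched by symbol for 17954 genes and by RefSeq synonym for 1992 (96.8% of detected genes had a length). The table's start positions were 1 below the annotated ones for 4527 genes and equal for 623; they were read as 0-based and are printed 1-based. Levels of gene pairs were compared on log2(RPKM + 0.1) within each library by a two-sided, exact permutation of signs (256 patterns), with Benjamini-Hochberg adjustment over 45 or 9 pairs. Variation above the trended dispersion was tested over all detected genes with edgeR's gof function. On simulated counts it called 0 of 11811 genes with none changed. With 200 genes raised 4-fold in 1 library it called 178 genes, of which 172 were raised ones. With 198 raised 2-fold it recovered 9, so small shifts in 1 library are mostly missed.

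With 1 group, no group comparison was made. Alternatives were library scaling, detection rule, dispersion trend, CQN offsets, pseudocount, transcript length and leaving out each library (DESeq2 1.42.0 for size factors and trend). Removing a trend on length and GC, leaving out libraries under the CQN offsets, and naming genes like SDPR were added after seeing the data. The members, lists and pairs were chosen with earlier results of these data known. The rule for named genes took all members and relatives, of each pathway list the 3 highest, the undetected where 5 or fewer and those above the trend, the markers (given by list, with few named singly), and the 3 genes most like CAV1, PLVAP and MFSD2A. The genes like SDPR fall outside it. The values of 1 gene of the receptor list are not reported here.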

Additional observations from a re-analysis of the deposited data

Results flagged for a closer look

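Of 38 sets of 8 library values examined for a sample far from the others, 1 was marked, and chance marks about 1 in 20 such sets. The CQN value of EHD2 was lowest in replicate 7, at 8.71, with the next library at 8.90. The gap was 0.596 of the whole range, above Dixon's 95% critical value for 8 samples.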

How the results depend on the processing

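The number of members above the variation trend rose from 0 to 1 (SDPR) with the DESeq2 trend and with the CQN offsets, under which it was 0 to 1 when each library was left out. The DESeq2 trend raised the count over all genes from 558 to 2811. Leaving out each library gave 381 to 491 genes above the trend, and 601 to 715 under the CQN offsets. All 10 members were detected under every rule tried except 1 RPKM in all libraries, which 9 met (not PLVAP). CAV1 minus PTRF reversed to -0.41 log2 units on CPM, -0.35 on CQN and -0.52 with union exon length. DNM2 minus CAV2 reversed to -0.49 with the longest transcript and -0.96 with union exons, and CAV2 minus PACSIN2 to -0.038 on CQN and -0.47 with union exons. Of all 45 pairs 3 reversed with the longest transcript and 6 with union exons. Among them, past the threshold with the canonical length, were DNM2 minus PACSIN2 (to -0.29 and -1.43) and DNM2 minus PRKCDBP (to -0.052 and -1.08). These length alternatives act through the length alone, and the cause of the CQN differences was not tested. Member pairs past the threshold were 37 to 40 when each library was left out, and family pairs 9 in each case. PLVAP and MFSD2A are limited by read pairs. No paired analysis was possible because there is 1 group.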

Other observations

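SDPR was added to the genes examined for likeness after its values were seen. The genes with the most similar CQN values over the 8 libraries were SMARCC2 (Pearson r = 0.993), LRIG1 (0.987) and CDK2AP2 (0.986), all 3 lowest in replicate 7 and highest in replicate 2. Their own SDs on that scale, 0.17, 0.25 and 0.17 log2 units, were smaller than the 0.46 of SDPR. These 3 too are the top of a search over all detected genes, and the r that unrelated genes would reach was not tested.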
